A study of Mus musculus with 62 samples.

Results

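MED1 sites called in a single muscle and lying in chromatin marked as active in that muscle were described for 4 mouse muscles, the extensor digitorum longus (EDL), quadriceps (Quad), soleus (Soleus) and diaphragm (Diaphragm). The MED1 lists numbered 834 (EDL), 3593 (Quad), 4070 (Soleus) and 2145 (Diaphragm) peaks, which merged into 9283 regions. Of these, 8345 had a peak of exactly 1 muscle. The sites described here are the 3331 of them (39.9%, Wilson 95% interval 38.9% to 41.0%) that overlapped, by at least 1 bp, a peak of histone H3 acetylated at lysine 27 (H3K27ac) called in the same muscle, or 35.9% of all merged regions. They comprised 158 sites in EDL, 986 in Quad, 1301 in Soleus and 886 in Diaphragm. The sites were chosen by the measured values themselves, namely which lists held a MED1 peak and whether H3K27ac was called there, so both are given as a description with no test.

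MED1 was profiled by chromatin immunoprecipitation and sequencing (ChIP-seq) in 1 library per muscle, from muscles pooled over several animals. The mice were wild-type C57BL/6, and the labels of the MED1 libraries give no treatment. H3K27ac and H3K4me2 (H3 dimethylated at lysine 4) were profiled in 2 libraries per muscle from sedentary wild-type mice, from pooled muscles for EDL, Soleus and Diaphragm and from single quadriceps for Quad. Further Quad libraries came from sedentary mice (Sed), mice with free access to running wheels (Ex), mice with a skeletal-muscle-specific PGC1a transgene (mTg) and their wild-type littermates (Wt). The H3K27ac libraries of the 4 muscles held 15.3 to 24.2 M tags per the file headers, and the depth of the MED1 libraries is unknown here. With 1 MED1 library per muscle, absence of a peak in a list cannot be told apart from a weaker immunoprecipitation or a shallower library, and no p-value is given. Intervals are Wilson 95% intervals over regions and cover counting error only. All 12 genes fixed as markers of the muscle fiber were the nearest gene to an H3K27ac peak. So were all 10 endothelial, 7 fibroblast, 5 smooth muscle and 4 mesothelial markers. The counts were 4 of 5 for satellite cells, 5 of 6 for macrophages, 2 of 5 for adipocytes and 3 of 4 for Schwann cells. This property therefore does not set the muscle fiber apart from other cells. In tissue chromatin, fewer fibers of a type and less of a mark per nucleus cannot be told apart.

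MED1 is a subunit of Mediator, the complex that carries signals from transcription factors bound at enhancers to RNA polymerase II at promoters, and it is the subunit through which nuclear receptors contact the complex. H3K27ac is laid down at enhancers and promoters that are in use, and H3K4me2 marks both active and poised elements. Skeletal muscles mix fast glycolytic and slow oxidative fibers, which use different isoforms of myosin, troponin and calcium pump, with EDL and Quad rich in fast fibers and Soleus and Diaphragm richer in oxidative ones.

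Sequences of the 300-base windows centred on sites are shown for the contrast that runs through the results, between sites whose acetylated region was called in 1 muscle only and sites whose region was acetylated in all 4. Each is read from the plus strand of mm10, 5′ to 3′, and is the site with the highest MED1 score of its kind and muscle. Capitals mark matches on either strand to short words known for factors active in muscle, namely CAGCTG (E-box), the MEF2 word, TNAAGGTCA (ERR), AGGTCA (nuclear receptor half-site, which is contained in the ERR word), TGANTCA (AP-1), TCAGGTT (MEF3), TGGAAA (NFAT), CATTCC (TEAD/MCAT), GGGCGG (SP/KLF) and the glucocorticoid response element (GRE). A match is a description of letters and not a binding site. The sites with H3K27ac in their own muscle alone were these.
EDL, Hspd1, chr1:55075594-55075893: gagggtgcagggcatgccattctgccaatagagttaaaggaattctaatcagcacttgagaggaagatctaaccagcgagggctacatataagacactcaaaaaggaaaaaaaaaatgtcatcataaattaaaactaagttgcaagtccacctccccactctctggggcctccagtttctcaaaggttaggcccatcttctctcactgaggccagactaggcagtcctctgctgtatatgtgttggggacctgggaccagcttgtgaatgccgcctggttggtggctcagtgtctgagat
Quad, Acvr2a, chr2:48080035-48080334: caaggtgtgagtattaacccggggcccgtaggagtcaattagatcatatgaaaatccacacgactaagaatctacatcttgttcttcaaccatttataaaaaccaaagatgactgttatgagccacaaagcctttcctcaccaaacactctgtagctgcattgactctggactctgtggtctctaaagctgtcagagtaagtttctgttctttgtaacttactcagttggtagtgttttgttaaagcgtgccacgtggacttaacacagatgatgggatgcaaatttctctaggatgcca
Soleus, Pdlim5, chr3:142322808-142323107: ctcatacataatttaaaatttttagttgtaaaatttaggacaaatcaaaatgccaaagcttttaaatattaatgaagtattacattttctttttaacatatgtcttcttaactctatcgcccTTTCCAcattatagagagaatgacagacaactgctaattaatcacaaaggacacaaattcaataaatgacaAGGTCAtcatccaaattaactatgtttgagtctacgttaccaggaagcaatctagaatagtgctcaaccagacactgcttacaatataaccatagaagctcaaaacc
Diaphragm, Grik4, chr9:42990545-42990844: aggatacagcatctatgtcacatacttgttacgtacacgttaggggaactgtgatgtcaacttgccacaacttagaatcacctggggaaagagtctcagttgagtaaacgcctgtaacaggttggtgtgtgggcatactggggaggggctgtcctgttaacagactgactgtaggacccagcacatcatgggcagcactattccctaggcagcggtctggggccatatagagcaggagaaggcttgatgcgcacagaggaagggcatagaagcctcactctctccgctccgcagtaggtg
The EDL window lay between genes, 12189 bp from the start of Hspd1, which encodes a mitochondrial chaperone. The Quad window, at -733925 bp from the start of the activin receptor gene Acvr2a, lay inside the noncoding gene Gm13481. The Soleus window was in an intron of Pdlim5, a Z-disc protein gene, and the Diaphragm window, nearest to the start of the glutamate receptor gene Grik4, lay in an intron of Arhgef12. These 4 windows held 2 matches in all, an NFAT word and a nuclear receptor half-site in the Soleus window. The EDL and Diaphragm sites with the highest MED1 score among those acetylated in all 4 muscles were these.
EDL, Slc25a25, chr2:32413053-32413352: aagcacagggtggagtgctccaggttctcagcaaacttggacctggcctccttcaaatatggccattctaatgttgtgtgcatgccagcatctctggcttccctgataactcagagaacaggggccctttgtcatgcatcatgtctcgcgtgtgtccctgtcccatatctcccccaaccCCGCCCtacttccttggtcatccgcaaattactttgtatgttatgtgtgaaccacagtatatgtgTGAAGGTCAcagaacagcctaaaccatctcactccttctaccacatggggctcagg
Diaphragm, Neat1, chr19:5845222-5845521: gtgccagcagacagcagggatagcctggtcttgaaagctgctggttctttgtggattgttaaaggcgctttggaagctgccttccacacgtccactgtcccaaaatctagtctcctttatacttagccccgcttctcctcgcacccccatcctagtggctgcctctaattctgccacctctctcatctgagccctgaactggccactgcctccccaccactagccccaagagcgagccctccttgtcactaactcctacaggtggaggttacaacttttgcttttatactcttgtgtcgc
The EDL window lay between genes, 10864 bp from the start of Slc25a25, a mitochondrial carrier gene, and held an SP/KLF word and an ERR word. The Diaphragm window lay in the exon of Neat1, the scaffold RNA of nuclear paraspeckles, and held none of the words.

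The first question was whether a MED1 site found in 1 muscle marks chromatin that is active in that muscle only. H3K27ac was rarely confined to that muscle. The H3K27ac region that held the site was called in all 4 muscles for 3037 of 3331 sites (91.2%, interval 90.2% to 92.1%), and in the muscle of the MED1 peak alone for 33 (0.991%, interval 0.706% to 1.39%). By muscle, the region was called in all 4 lists for 142 of 158 EDL sites (89.9%, interval 84.2% to 93.7%), 901 of 986 Quad sites (91.4%, interval 89.5% to 93.0%), 1162 of 1301 Soleus sites (89.3%, interval 87.5% to 90.9%) and 832 of 886 Diaphragm sites (93.9%, interval 92.1% to 95.3%). Over all H3K27ac peaks of the same lists, the share called in all 4 muscles was 56.7% in EDL, 51.1% in Quad, 61.0% in Soleus and 63.5% in Diaphragm. At least 1 other muscle had H3K27ac at 98.7% of the EDL sites, 98.3% of the Quad sites, 99.2% of the Soleus sites and 99.7% of the Diaphragm sites, beside 91.2%, 83.3%, 90.8% and 90.2% of all H3K27ac peaks.

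Region width moved with this sharing. Regions that held a site had a median width of 3954 bp in EDL, 2926 bp in Quad, 2585 bp in Soleus and 2733 bp in Diaphragm, against 1890.0, 1552, 1784 and 1785 bp over all H3K27ac peaks. Among all H3K27ac peaks at least as wide as the median of the site-holding regions, 93.1% in EDL, 89.0% in Quad, 90.4% in Soleus and 91.4% in Diaphragm were called in all 4 muscles. These values were above those of the sites in EDL and Soleus and below them in Quad and Diaphragm, and in EDL and Soleus they lay within the interval of the sites. The wide peaks were all at or above that median width, while the site-holding regions lay on both sides of it, so widths were not matched.

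**Figure D1:**
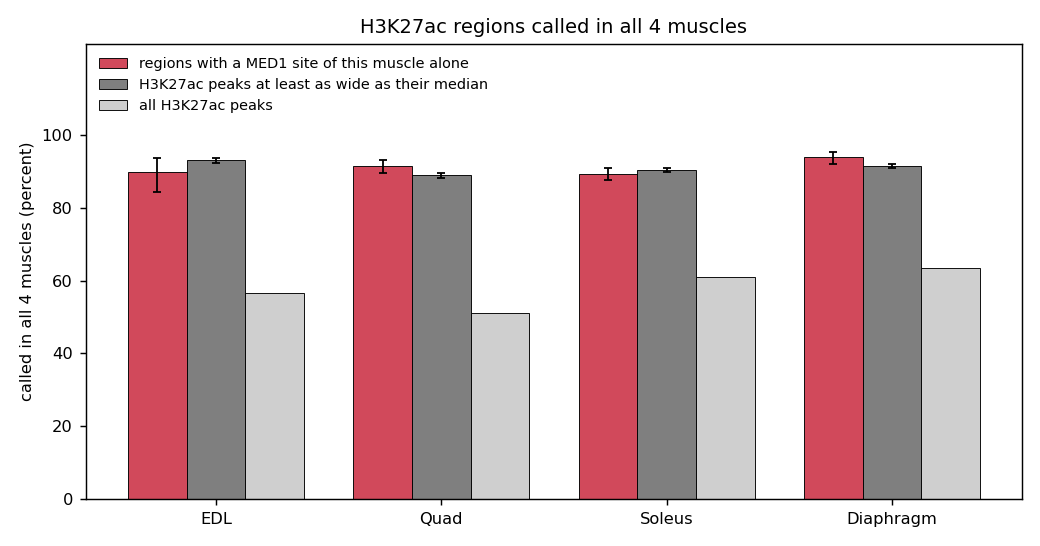
Share of H3K27ac regions called in all 4 muscles (vertical axis, percent) for regions that hold a MED1 site of 1 muscle, all H3K27ac peaks, and H3K27ac peaks at least as wide as the median of the site-holding regions, by muscle. Lines are Wilson 95% intervals; the sites sit between 89.3% and 93.9%, all peaks between 51.1% and 63.5%, and the wide peaks between 89.0% and 93.1%.

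Some sites had MED1 of another muscle close by. A MED1 peak of another muscle lay within 1000 bp, without overlapping, at 20.3% of the EDL sites, 17.3% of the Quad sites, 11.7% of the Soleus sites and 14.6% of the Diaphragm sites. The H3K27ac region that held the site also held a MED1 peak of another muscle elsewhere for 591 sites (17.7%, interval 16.5% to 19.1%). The closest of these gaps were 3 bp in EDL, 1 bp in Quad, and 2 bp in both Soleus and Diaphragm. At Nfatc1, the gene of a calcineurin-responsive transcription factor, a Quad and a Soleus site were 25 bp apart. The same distance separated a Quad and a Diaphragm site near Myf6, a myogenic regulator gene, and at Krt10, a keratin gene, a Quad site with a score of 29.4 had a Diaphragm peak 19 bp away. In these instances the muscles differed in the exact place of a called peak within the same acetylated region. At the other edge of the rule, 10 EDL, 65 Quad, 64 Soleus and 21 Diaphragm sites lay only partly inside their H3K27ac region, with overlaps down to 4 bp. Among the 5014 MED1 regions of 1 muscle that missed H3K27ac, 25 in EDL, 126 in Quad, 152 in Soleus and 58 in Diaphragm were within 1000 bp of an H3K27ac peak of their muscle, and the median distance ran from 20036 bp in Soleus to 25388 bp in EDL.

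MED1 scores of the sites were lower than those of regions found in several muscles. The rule separates these sets by the MED1 calls themselves, so this difference is not independent of how the sites were chosen. The score is the authors' peak score, which can be ranked only within a list. Its median over the sites was 6.61 in EDL, 7.03 in Quad, 7.02 in Soleus and 6.79 in Diaphragm. Over MED1 regions of 2 or more muscles it was 10.2, 9.58, 9.94 and 8.88. The highest scores among the sites were 14.4 in EDL (Slc25a25), 53.7 in Quad (Nctc1), 38.0 in Soleus (Zfp692) and 26.6 in Diaphragm (Neat1). The next highest in Quad were at fast fiber genes, Myh4 (35.1) and Pvalb (34.5). In Soleus they were at Tcap (26.3), which encodes a titin-binding Z-disc protein, and at its neighbor Pnmt (25.7), both in the same H3K27ac region.

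The level of H3K27ac was high in the regions that held these sites. Levels are log2 values per kb of region width, computed from the deposited normalized tags, which were normalized separately in each list. In EDL the median over site-holding regions was 7.51 in replicate 1 and 7.50 in replicate 2, against 6.11 and 6.19 over all H3K27ac peaks. In Quad it was 7.21 and 7.17 against 5.60 and 5.65. In Soleus it was 7.02 and 6.94 against 5.90 and 5.92, and in Diaphragm 7.71 and 7.68 against 6.29 and 6.27. The difference of medians was 1.36 ± 0.064 in EDL, 1.57 ± 0.064 in Quad, 1.07 ± 0.070 in Soleus and 1.41 ± 0.0083 in Diaphragm (log2, SD, n = 2 libraries), with both libraries of every muscle higher at the sites. The regions called in 1 muscle alone were the exception, with means of 4.80 in EDL (2 sites), 4.79 in Quad (17 sites), 5.20 in Soleus (11 sites) and 5.04 in Diaphragm (3 sites), below the median of all peaks in each list. No comparison was made with all H3K27ac peaks called in 1 muscle alone.

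Where the region was acetylated in all 4 muscles, the next question was whether the muscle with the MED1 peak had the most H3K27ac. Because the lists were normalized separately, the level per kb was expressed as a percentile in each muscle's own list. For each other muscle, the level is that of its H3K27ac peak with the largest overlap with the region, within that peak's own bounds. Such a peak need not cover the MED1 site. The medians of the 4 lists lay close together. For the EDL sites they were 89.9 in EDL, 92.0 in Quad, 87.4 in Soleus and 88.6 in Diaphragm. For the Quad sites they were 92.2, 92.3, 89.8 and 90.8, for the Soleus sites 87.8, 88.4, 88.3 and 87.8, and for the Diaphragm sites 90.4, 90.6, 89.6 and 89.9, in the same order of lists. A muscle's own sites thus ranked nearly as high in the 3 other muscles as in that muscle. The medians of single replicates in the own list were 90.7 and 89.7 for EDL, 92.3 and 92.0 for Quad, 88.6 and 87.9 for Soleus, and 90.2 and 89.2 for Diaphragm, a spread as wide as that between lists in Soleus and Diaphragm.

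**Figure D2:**
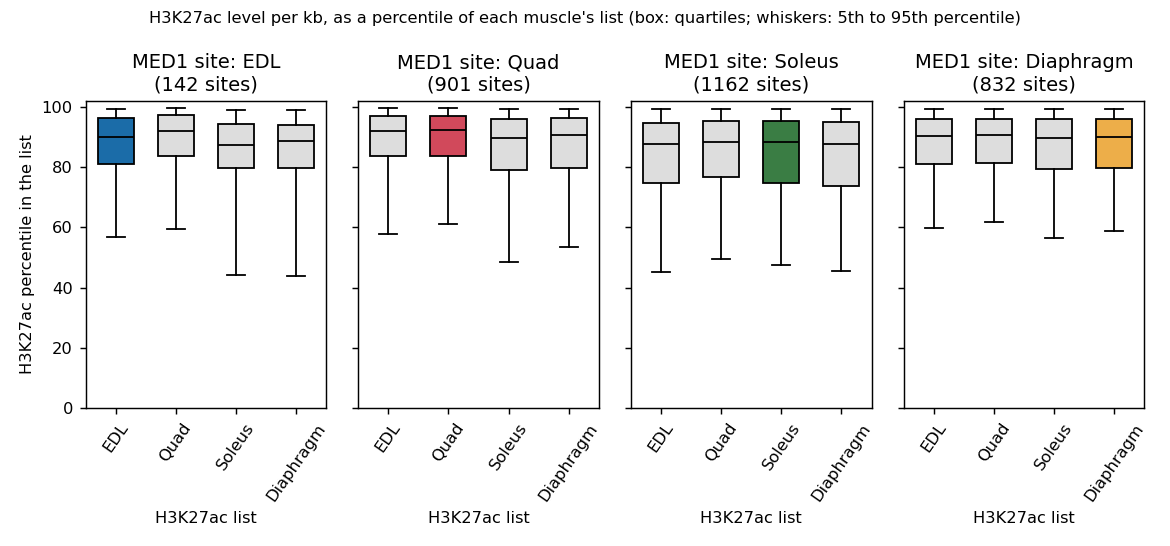
Percentile of the H3K27ac level per kb in each muscle's own list (vertical axis, 0 to 100) for sites acetylated in all 4 muscles, in a panel for each muscle with the MED1 peak; boxes show quartiles and the line the median. For the other muscles, the level is that of their H3K27ac peak overlapping the region. The 16 medians lie between 87.4 and 92.3, with no step up in the list of the muscle that had the MED1 peak.

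The percentile was highest in the muscle of the MED1 peak at 36 of 142 EDL sites (25.4%, interval 18.9% to 33.1%), 283 of 901 Quad sites (31.4%, interval 28.5% to 34.5%), 312 of 1162 Soleus sites (26.9%, interval 24.4% to 29.5%) and 178 of 832 Diaphragm sites (21.4%, interval 18.7% to 24.3%). Over all H3K27ac peaks called in all 4 muscles, the same share was 17.4% for EDL, 37.9% for Quad, 23.4% for Soleus and 17.7% for Diaphragm. By this background the sites were higher in EDL, Soleus and Diaphragm and lower in Quad. Among the upper 25% of those peaks by mean percentile, a background closer in level to the sites, the share was 24.1%, 32.3%, 24.4% and 19.5%, which the intervals of the sites held in every muscle, at their lower bound in Soleus. MED1 regions of 2 or more muscles gave 24.1% (interval 19.2% to 29.8%), 27.9% (24.5% to 31.6%), 23.9% (20.6% to 27.5%) and 26.4% (22.7% to 30.3%). The sites were higher in EDL, Quad and Soleus and lower in Diaphragm, but the 2 intervals overlapped in every muscle. Without division by width, the shares at the sites were 20.4% in EDL, 41.5% in Quad, 26.9% in Soleus and 31.7% in Diaphragm, and those of wide H3K27ac peaks were 21.3%, 44.8%, 34.6% and 27.3%, so that the Soleus sites then fell below this background and the side of the background on which a muscle lay depended on the peaks and the scale chosen. The lead of the own muscle over the highest of the others had a median of -2.30 percentile points in EDL, -1.16 in Quad, -2.16 in Soleus and -2.32 in Diaphragm. It was over 20 points at 1 EDL, 3 Quad, 8 Soleus and 0 Diaphragm sites, and the own muscle was more than 20 points behind at 3, 17, 57 and 34 sites.

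The few sites with a large lead were at identifiable genes. In Soleus the largest lead, 58.9 points, belonged to both sites in intron 1 of Myl3, the slow and ventricular myosin essential light chain. The next was at the promoter of Fzd9, a Wnt receptor gene, with percentiles of 40.2 in EDL, 26.2 in Quad, 73.1 in Soleus and 34.4 in Diaphragm. In Quad the leads were at Bod1 (53.5, 89.1, 48.4 and 59.9 in the same order), Plpp3 (53.6, 75.7, 41.0 and 41.8), a lipid phosphatase gene, and Cmklr1 (17.3, 51.8, 30.5 and 30.1), the chemerin receptor gene. In EDL only Cdc42ep3, a Cdc42 effector gene, had a lead over 20 points, with 89.9 in EDL, 66.1 in Quad, 54.1 in Soleus and 68.1 in Diaphragm. The largest leads in Diaphragm were 16.7 points, at Lrp5, a Wnt coreceptor gene, and at E130215H24Rik. At Lrp5 both Diaphragm libraries were at 7.78, and the other 3 muscles had percentiles from 73.0 to 73.9 against 90.5 in Diaphragm.

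The sites were close to transcription start sites. By the authors' annotation, promoters held 22.8% of the EDL sites (interval 16.9% to 29.9%), 41.8% of the Quad sites (38.7% to 44.9%), 34.3% of the Soleus sites (31.8% to 36.9%) and 45.8% of the Diaphragm sites (42.6% to 49.1%). Over all MED1 peaks of the same lists the share was 16.8%, 22.6%, 18.9% and 34.8%, and over all H3K27ac peaks 13.4%, 11.2%, 13.4% and 13.3%. Of the MED1 regions of 1 muscle that missed H3K27ac, only 1.96%, 2.33%, 1.92% and 4.51% were at promoters, and 41.6% to 46.9% were intergenic against 12.3% to 19.6% of the sites. The median distance from the site to the nearest start was 1260.0 bp in EDL, 277 bp in Quad, 355 bp in Soleus and 257 bp in Diaphragm. EDL thus had the smallest promoter share of the 4 muscles, with an interval that did not overlap those of the others, and its MED1 list was also the smallest.

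**Figure D3:**
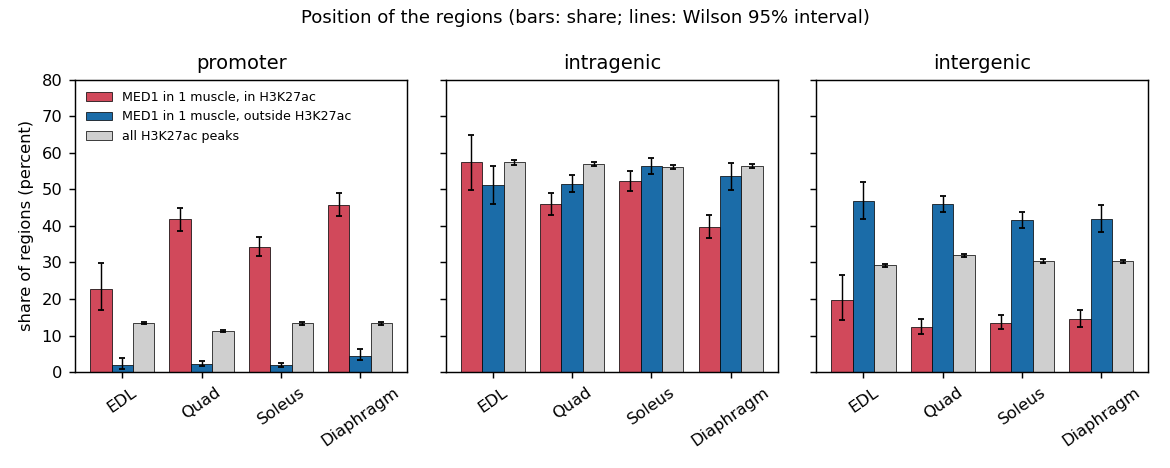
Share (vertical axis, percent) of regions in each annotation class, by muscle, for MED1 sites of 1 muscle in H3K27ac, MED1 regions of 1 muscle outside H3K27ac, and all H3K27ac peaks; lines are Wilson 95% intervals. Promoters hold 22.8% to 45.8% of the sites and 1.92% to 4.51% of the MED1 regions outside H3K27ac.

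H3K4me2, which was not used to choose the sites, was present at most of them. H3K4me2 of the same muscle overlapped 83.5% of the EDL sites, 86.6% of the Quad sites, 85.9% of the Soleus sites and 78.9% of the Diaphragm sites, and H3K4me2 of all 4 muscles overlapped 63.9%, 75.5%, 77.7% and 74.0%. The MED1 regions of 1 muscle outside H3K27ac overlapped H3K4me2 at 6.98%, 5.25%, 6.58% and 8.87%. Taken over the whole H3K27ac region, H3K4me2 was found at 92.4%, 93.5%, 91.5% and 88.5% of the sites, beside 71.5% (EDL), 64.1% (Quad), 64.1% (Soleus) and 60.0% (Diaphragm) of all H3K27ac peaks. Wide H3K27ac peaks had H3K4me2 at 88.8%, 83.8%, 76.6% and 74.1%, which is below the interval of the sites in Quad, Soleus and Diaphragm and within it in EDL.

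Open chromatin was measured by ATAC-seq (transposase-accessible chromatin) in Quad. An ATAC peak of control Quad overlapped 386 of 986 Quad sites (39.1%, interval 36.1% to 42.2%) and 1.54% of the Quad MED1 regions outside H3K27ac. The H3K27ac region of the site held an ATAC peak in 93.6% of cases, against 57.2% of all Quad H3K27ac peaks and 88.1% of the wide ones. The regions were also called repeatedly in other mice. In the Sed, Ex, Wt and mTg lists, 96.6%, 94.4%, 96.3% and 92.5% of the regions with a Quad site were found, and 87.8% in all of these lists, against 41.8% of all Quad H3K27ac peaks and 84.0% of the wide ones.

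Quad sites were then looked up in the lists of regions that the authors called as changed in H3K27ac after exercise or with the transgene, lists made from other libraries than those that chose the sites. Loss after exercise was the most frequent. The H3K27ac regions of 87 sites (8.82%, interval 7.21% to 10.8%) overlapped one hypoacetylated in Ex, against 5.32% of all Quad H3K27ac peaks and 11.3% of the wide ones. None of the 986 did so with a region hyperacetylated in Ex, a count of 0 that allows a share of up to 0.304% by a limit of 3 counts of the total (Wilson upper bound 0.388%), against 0.469% of all and 0.105% of the wide peaks. The H3K27ac regions of 20 sites (2.03%) overlapped one hyperacetylated in mTg, against 2.51% of all peaks and 2.00% of the wide ones, and those of 12 sites (1.22%, interval 0.698% to 2.12%) one hypoacetylated in mTg, against 1.79% and 2.41%. The share gained in mTg was near both backgrounds, the share lost in mTg was near that of all peaks and below that of wide peaks, and the share lost in Ex lay above that of all peaks and below that of wide peaks.

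The 76 sites that themselves overlapped a region hypoacetylated in Ex included the highest-scoring fast fiber genes. At the promoter near Myh4, the myosin heavy chain of the fastest fibers, the level was 9.98 and 9.81 in Ex and 11.20 and 10.75 in Sed, a difference of -1.08 on the log2 scale. The authors chose these regions for differing, so the separation of the 4 libraries is a description. At Pvalb, the gene of the calcium buffer parvalbumin, the values were 8.93 and 8.62 in Ex and 9.91 and 9.44 in Sed. At Mybpc2, fast myosin-binding protein C, they were 9.70 and 9.47 against 10.62 and 10.32, and at Actn3, the fast α-actinin, 9.09 and 8.90 against 9.94 and 9.61. In each instance both Ex libraries were below both Sed libraries. Pgam2, a muscle glycolytic enzyme gene, differed by -0.80, the M-band gene Myom2 by -1.08, and the myosin kinase gene Mylk4 by -1.11. The losses were not confined to fast fiber genes. Myoz2, on the list of slow fiber contractile genes, was at 9.86 and 9.59 in Ex and 10.66 and 10.43 in Sed, a difference of -0.82. The calcium handling gene Jph2 differed by -0.85 and Xirp2, on the sarcomere and Z-disc list, by -0.78.

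Fewer sites themselves overlapped a region listed as changed in mTg, 17 among the gains and 9 among the losses. At Fabp3, the heart and muscle fatty acid binding protein gene, the 2 mTg libraries were at 8.90 and 8.94 and the Wt libraries at 7.72 and 7.61, a difference of 1.25. At Myh1, the myosin heavy chain of IIx fibers, they were at 10.22 and 10.48 against 9.44 and 9.44, a difference of 0.91, while the same site was also in the list lost after exercise, at 8.81 and 8.35 in Ex against 9.52 and 9.35 in Sed. Rassf10 had the largest gain, 1.48. Of the 9 sites that themselves overlapped a region hypoacetylated in mTg, that near Mir582 differed most, by -1.80. The Acvr2a site whose sequence is printed above was in both lists of losses, by -0.68 in Ex and -1.03 in mTg.

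Peaks of NFAT, a calcium-regulated transcription factor, were listed for Quad and Soleus. No Quad site and 8 Soleus sites (0.615%) overlapped one. The H3K27ac region held an NFAT peak at 2 Quad sites (0.203%) and 50 Soleus sites (3.84%, interval 2.93% to 5.03%), against 0.0464% and 3.02% of all H3K27ac peaks. The Soleus share was near its background.

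Nearest genes were counted by muscle. The sites were nearest to 154 genes in EDL, 934 in Quad, 1235 in Soleus and 835 in Diaphragm, 2812 genes in all. Of these, 2493 were reached in 1 muscle, 295 in 2, 21 in 3 and 3 in all 4. Quad and Soleus shared 116 genes, which is 12.4% of the Quad genes and 9.39% of the Soleus genes, and EDL and Quad shared 31, which is 20.1% of the EDL genes and 3.32% of the Quad genes. Genes with at least 3 sites in a muscle included Myl1, a fast myosin light chain gene, Rora, a clock-linked nuclear receptor gene, and Pdlim5 in Quad, the kinase gene Sik1 and the transcription factor gene Klf4 in Soleus, and Ugp2, which encodes the enzyme that makes UDP-glucose for glycogen and had 4 sites, in Diaphragm. Because MED1 peaks that overlap between muscles were removed by the rule, a small overlap of genes is partly set by it. As a background for these overlaps and for the gene lists below, 15881 genes were nearest to an H3K27ac peak of any muscle, and 0.951% of them had an EDL site, 5.71% a Quad site, 7.49% a Soleus site, 5.06% a Diaphragm site and 17.1% a site in any muscle. Of the Quad genes 12.4% were also Soleus genes, against 7.49% of this background. Of the EDL genes 20.1% were also Quad genes, against 5.71%. Both of these shares were above the background. What sets the number of muscles per gene beyond the rule was not tested.

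Contractile genes were counted by fiber type. Of 16 genes on a list of fast fiber contractile genes, 12 had a site, and these were 9 genes in Quad (Myh1, Myh4, Myl1, Actn3, Tpm1, Mylk2, Mybpc2, Pvalb and Myoz1), 4 in EDL (Mylpf, Myl1, Tpm1 and Mylk2), 2 in Diaphragm (Tnnt3 and Tnni2, the fast troponins T and I) and 0 in Soleus. Of 16 slow fiber contractile genes, 6 had a site, with 3 in Soleus (Myh7, the slow myosin heavy chain, Myl3, and Atp2a2, the slow fiber calcium pump), 3 in Quad (Myoz2, Mybpc1 and Csrp3), 2 in Diaphragm (Atp2a2 and Myoz2) and 0 in EDL. Over all MED1 peaks, including those shared between muscles, the fast genes counted 4 in EDL, 10 in Quad, 2 in Soleus and 3 in Diaphragm, and the slow genes 0, 3, 5 and 2. The lists were chosen with results of these data known, so the counts are not independent evidence of a direction.

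At these genes the rank of H3K27ac differed between muscles. The 11 Quad sites at fast genes were at 9 genes, with 3 sites at Myl1, so that gene counts repeatedly. Their median H3K27ac percentiles were 96.5 in EDL, 97.4 in Quad, 51.0 in Soleus and 86.2 in Diaphragm. The Soleus values ran from 3.87 to 97.6. Quad was highest at 7 of these sites, beside 37.9% of all Quad H3K27ac peaks called in all 4 muscles. The 4 Soleus sites at slow genes lay in 3 regions, since both Myl3 sites share one, with percentiles in Soleus of 92.6 for Myl3 and 77.1 for Myh7 and a lead of 8.19 points over Diaphragm for Atp2a2, against 4.75 and 14.1 in EDL and 28.1 and 3.20 in Quad for Myl3 and Atp2a2, and 33.6, 66.8 and 16.4 in Diaphragm. Sequences of a site of each group, chosen after their values were seen, are given with the same marking of words, first from intron 1 of Mybpc2 and then from intron 1 of Myl3, on the plus strand of mm10.
Quad, Mybpc2, chr7:44523160-44523459: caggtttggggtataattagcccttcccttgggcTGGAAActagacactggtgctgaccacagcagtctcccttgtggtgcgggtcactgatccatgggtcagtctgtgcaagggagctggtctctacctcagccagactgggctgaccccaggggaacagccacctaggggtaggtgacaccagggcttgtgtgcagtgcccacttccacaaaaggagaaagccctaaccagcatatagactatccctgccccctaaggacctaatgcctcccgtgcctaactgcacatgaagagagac
Soleus, Myl3, chr9:110765286-110765585: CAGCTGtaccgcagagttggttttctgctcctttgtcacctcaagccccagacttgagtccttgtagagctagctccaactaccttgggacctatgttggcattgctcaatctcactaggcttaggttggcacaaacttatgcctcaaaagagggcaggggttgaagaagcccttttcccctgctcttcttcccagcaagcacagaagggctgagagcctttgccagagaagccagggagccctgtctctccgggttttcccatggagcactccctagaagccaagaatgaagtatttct
Mybpc2 is transcribed from the minus strand and its window held an NFAT word. Myl3 is on the plus strand and its window began with an E-box.

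Levels of the other muscles at a named site are those of their overlapping H3K27ac peaks, which can have other bounds. At Myh4, the Quad site (chr11:67237863-67238073) lay in an H3K27ac region with levels per kb of 7.73 and 7.47 in the 2 Quad libraries. The overlapping peaks had 7.19 and 7.45 in EDL, 6.17 and 6.33 in Diaphragm and 5.02 and 3.96 in Soleus. These corresponded to percentiles of 96.7, 84.4, 49.4 and 3.87 in the respective lists. Quad and EDL were high and Soleus was lowest, on scales set separately in each muscle's list. At Pvalb the levels were 7.77 and 7.51 in Quad, 7.74 and 7.81 in EDL, 7.31 and 7.38 in Diaphragm and 5.94 and 5.58 in Soleus. At Mybpc2 they were 7.81 and 7.66 in Quad, 8.15 and 7.98 in EDL, 7.52 and 7.44 in Diaphragm and 5.44 and 5.43 in Soleus. At Actn3 they were 7.67 in both Quad libraries, 7.46 and 7.69 in EDL, 6.15 and 6.85 in Diaphragm and 5.60 and 5.56 in Soleus. At all 4 genes the Soleus percentile was the lowest of the 4 muscles, as were both Soleus levels. EDL also ranked high at Pvalb (percentile 93.4, against 97.1 in Quad) and Mybpc2 (97.1 against 97.9), and by the rule no EDL MED1 peak overlapped these sites.

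At the slow genes with a Soleus site, Soleus ranked highest. At Myl3 (2 sites in Soleus, scores 11.1 and 9.94) the levels were 7.44 and 7.17 in Soleus, 5.79 and 5.81 in Diaphragm, 5.05 and 4.87 in Quad and 4.98 and 4.47 in EDL. Near Atp2a2 (chr5:122510596-122510806) they were 6.76 and 6.40 in Soleus, 6.87 and 6.74 in Diaphragm, 5.36 and 4.94 in EDL and 3.77 and 4.03 in Quad. By percentile Soleus was first at both genes, by 8.19 points over Diaphragm at Atp2a2, where the levels of these muscles overlapped, and by 58.9 at Myl3. Near Myh7 the region was not called in EDL or Quad, and the levels were 6.77 and 6.53 in Soleus and 5.19 and 5.33 in Diaphragm. The other sites at slow genes were in Quad and Diaphragm, and none was highest in the muscle of its MED1 peak. The 3 Quad sites had median percentiles of 88.2 in EDL, 83.3 in Quad, 82.0 in Soleus and 83.0 in Diaphragm, and the 2 Diaphragm sites, at Atp2a2 and Myoz2, were higher in Soleus (94.9 and 94.2) than in Diaphragm (89.5 and 87.5). At Csrp3, a muscle LIM protein gene, the Quad site had percentiles of 21.3 in Quad and 72.3 in Soleus, and the Diaphragm site at Tnnt3 was as high in Soleus (97.4) as in Diaphragm (97.0).

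**Figure D4:**
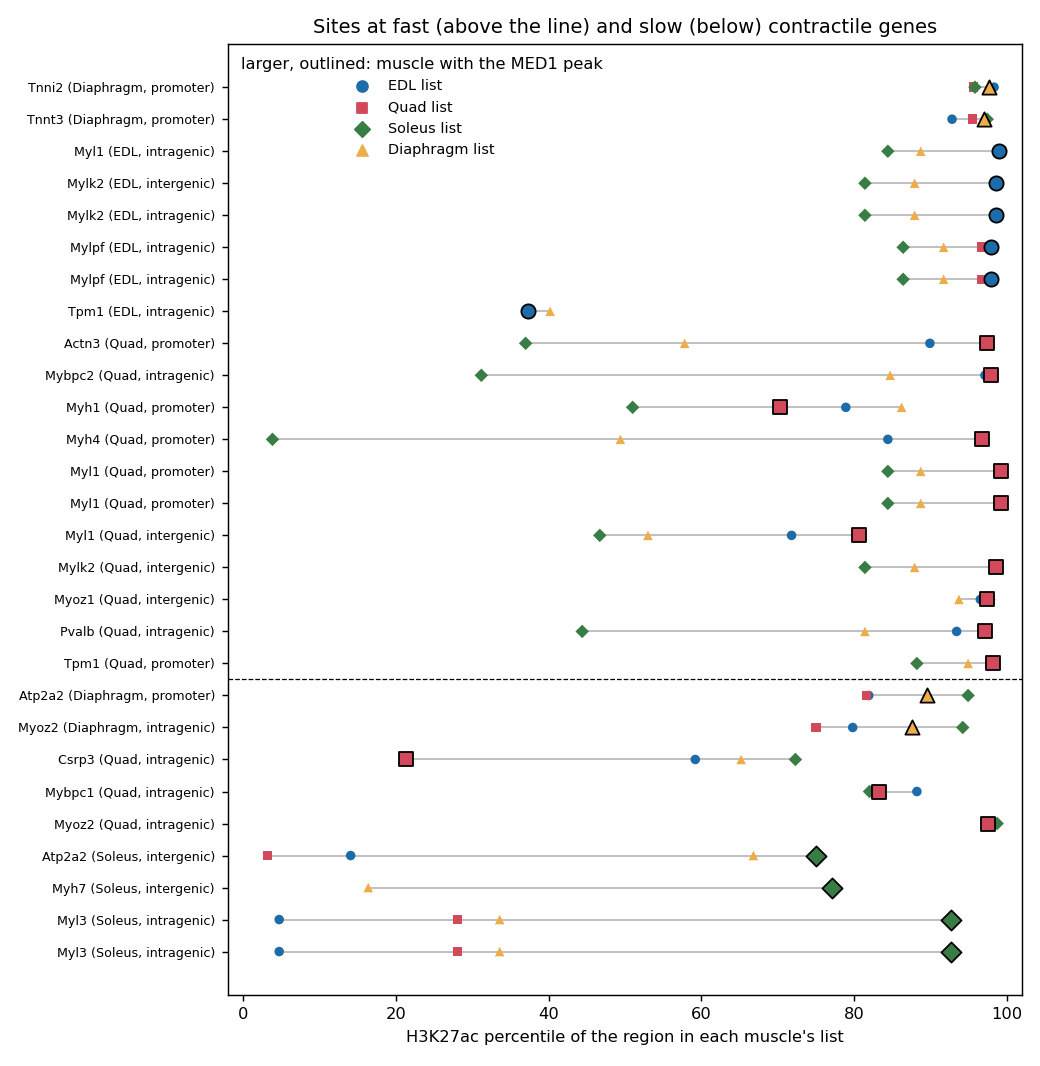
H3K27ac percentile (horizontal axis, 0 to 100, within each muscle's own list) of the regions that hold MED1 sites at fast contractile genes (above the line) and slow contractile genes (below), with a point for each muscle and a larger outlined point for the muscle with the MED1 peak. Points of the other muscles are those of their H3K27ac peaks overlapping the region. Soleus points of Myh4, Pvalb, Mybpc2 and Actn3 fall between 3.87 and 44.4, and for Myl3 the Soleus point (92.6) is far above those of EDL, Quad and Diaphragm (4.75, 28.1 and 33.6).

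Of 23 glucose and glycogen genes, 13 had a site, with 9 genes in Quad (Pfkm, Pfkfb3, Aldoa, Pgam2, Eno3, Pkm, Gys1, Phka1 and Gpd1), 3 in Diaphragm (Slc2a4, Gys1 and Gbe1), 2 in Soleus (Gapdh and Ppp1r3a) and 1 in EDL (Pgam2). The 10 Quad sites had median percentiles of 93.2 in EDL, 90.7 in Quad, 89.7 in Soleus and 92.1 in Diaphragm. The Quad median was thus below those of EDL and Diaphragm. Quad was highest at 7 of the 10 sites, beside 37.9% of all Quad H3K27ac peaks called in all 4 muscles. Whether the count exceeds that share was not tested. Gpd1, a glycerol phosphate shuttle enzyme gene, departed from these medians with 47.5 in Soleus against 88.9 to 90.5 elsewhere. The Soleus site at the end of Gapdh was the opposite of its muscle, with levels of 6.27 and 5.84 in Soleus and 7.87 to 8.51 in the other libraries.

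Of 20 fatty acid and ketone genes, 10 had a site: Cd36, Acadvl, Hadha and Bdh1 in Soleus, Lpl and Cpt2 in Diaphragm, Fabp3 and Acsl1 in Quad, and Ucp3 and Mlycd in EDL. At Bdh1, which encodes a ketone body dehydrogenase, the levels were 7.22 and 6.77 in Soleus, 7.52 and 7.39 in Diaphragm, 6.60 and 5.91 in EDL and 4.58 and 4.04 in Quad, with percentiles of 86.3, 84.1, 54.0 and 9.91, lowest in Quad. At Ucp3, the muscle uncoupling protein gene, the EDL site had percentiles of 98.3 in EDL and 95.9 in Quad against 74.9 in Soleus. Hadha, a trifunctional protein gene of β-oxidation, was high in all 4 muscles (87.2 to 98.8), and its Soleus site was 53 bp from a MED1 peak of another muscle.

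Regulators of oxidative metabolism and nuclear receptors had 12 of 21 genes with a site. The 2 Diaphragm sites near Ppargc1a, the gene of PGC1α, shared a region with levels of 7.27 and 6.05 in Diaphragm, 6.73 and 5.87 in Soleus, 6.28 and 5.31 in EDL and 5.71 and 4.49 in Quad, with percentiles of 62.7, 65.6, 37.0 and 32.7 and with replicates up to 1.22 apart. A separate Soleus site of Ppargc1a lay in a region that was high in all lists (85.3 to 94.8). At Esrrg, an orphan nuclear receptor gene active in oxidative fibers, a Soleus and a Diaphragm site were 254 bp apart in a region with percentiles of 73.7 and 74.0 there, 59.5 in Quad and 44.2 in EDL. Ppara and Nr1d2 had sites in Diaphragm, Esrra, Ppard, Rora and Nrip1 in Quad, Nr3c1 and Thrb in Soleus, Nr4a2 in Soleus and Diaphragm, and Nr1d1 in EDL and Quad.

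Of 28 myogenic and fiber-type factors, 16 had a site. Among them, Soleus sites were at Mef2a, Tead1, Vgll2, Nfatc1, Nfatc2, Nfatc3, Hdac4, Nfix and Nfia, Quad sites at Myog, Myf6, Mef2a, Tbx15, Nfatc1, Maf, Nfix and Nfia, Diaphragm sites at Myf6, Sox6 and Maf, and an EDL site at Mef2c. Mef2a, Nfatc1, Nfix and Nfia had separate sites in Quad and Soleus, and Myf6 and Maf in Quad and Diaphragm. Percentiles of the 11 Soleus sites had medians of 88.7 in EDL, 80.8 in Quad, 89.1 in Soleus and 90.4 in Diaphragm, and Soleus was highest at 1 of them. At Tbx15, a T-box factor gene of fast glycolytic fibers, the Quad site had 95.5 in Quad, 93.3 in Diaphragm, 86.0 in EDL and 74.7 in Soleus. At Sox6, a repressor of slow genes, the Diaphragm site had 94.3 in EDL, 93.4 in Quad, 79.2 in Soleus and 77.7 in Diaphragm, lowest in the muscle that had the MED1 peak.

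Among 25 sarcomere and Z-disc genes 15 had a site, 9 in Quad, 6 in Soleus, 5 in Diaphragm and 1 in EDL. At Pdlim5, a Quad and a Soleus site lay 65 bp apart in a region at percentiles of 91.2 to 96.4. At Ttn, the giant spring protein, the Diaphragm site was at 76.2 in Diaphragm, 45.2 in Soleus and 18.3 in EDL, and had no H3K27ac call in Quad. Calcium handling genes had sites at 6 of 18, with Cacna1s, Cacng1, Jph1 and Jph2 in Quad. Growth and atrophy regulators had sites at 11 of 22, with 7 in Quad, among them Foxo1 and its ubiquitin ligase targets Fbxo32 and Trim63. Activity-induced and clock genes had sites at 13 of 24, spread over all muscles, and those at Per1 and Dbp, both clock-controlled genes, lay in regions at a percentile of 100 in every list, after rounding.

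Genes that mark other cells or positions were looked up in the same way. Angiogenic genes had sites at 2 of 13 (Vegfa in EDL and Epas1 in Quad), and limb and positional factors at 2 of 26 (Hoxa9 and Hoxd8, both in Soleus). Endothelial markers had sites at 2 of 10 (Tek and Egfl7) and fibroblast markers at 2 of 7 (Pdgfra and Dpt), all in Soleus, and smooth muscle markers at 1 of 5 (Notch3, in EDL). No marker of satellite cells, macrophages, adipocytes, Schwann cells or mesothelium had a site. Muscle fiber markers had sites at 9 of 12, and of all genes nearest to an H3K27ac peak 17.1% had one. The part of other cell types in the sites was not tested.

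The sites whose H3K27ac was called in 1 muscle alone had low MED1 scores and low H3K27ac. They were picked by that H3K27ac call and were not compared with all H3K27ac peaks called in 1 muscle alone. Their low H3K27ac can therefore not be read as a trait of these MED1 sites. Their median MED1 score was 6.31 in EDL, 6.39 in Quad, 6.43 in Soleus and 5.22 in Diaphragm, below the median of all sites of the same list, and the highest in Quad was 8.30, at Acvr2a. Promoters held 2 of the 33, genes 19 and intergenic space 12, and 11 overlapped H3K4me2 of their own muscle. Their H3K27ac regions had median percentiles of 11.2 in EDL, 27.1 in Quad, 19.0 in Soleus and 11.9 in Diaphragm. Among the genes they were nearest to were Klf9, a glucocorticoid-induced factor gene, and Bckdhb, a subunit of branched-chain amino acid breakdown, in Quad, and Pdlim5 and Hdac7, a class IIa histone deacetylase gene, in Soleus. The Pdlim5 site had levels of 5.16 and 5.45 in the 2 Soleus libraries, and the Hdac7 site 5.76 and 5.96.

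Short words for factors were counted in the 300-base windows outside promoters and set against windows at the centre of all H3K27ac peaks outside promoters. The SP/KLF word GGGCGG was found at 25.4% of the EDL sites, 34.1% of the Quad sites, 34.9% of the Soleus sites and 32.7% of the Diaphragm sites, against 12.8%, 11.2%, 13.2% and 13.5% of H3K27ac peaks. The windows differed in base composition as well, with a median GC content of 52.7%, 56.5%, 57.0% and 55.7% at the sites and 48.7%, 48.0%, 48.7% and 48.7% at the peaks, and the part of GC content was not tested. Sites just past a start were not classed as promoters, such as those at Mbd6 (113 bp) and Neat1 (107 bp) in Diaphragm, so they stayed among these windows. The part of the distance to a start was not tested. The AP-1 word TGANTCA was at 6.56%, 6.27%, 6.78% and 8.33% of the sites and at 10.1%, 10.3%, 10.2% and 10.7% of the peaks. The NFAT word TGGAAA was at 21.3%, 19.9%, 20.2% and 21.5% against 26.2%, 26.7%, 26.5% and 26.3%. The interval of the sites lay below the share of the peaks in Quad and Soleus for AP-1 (upper bounds 8.56% and 8.67%) and in Quad, Soleus and Diaphragm for NFAT (23.3%, 23.1% and 25.3%), and held it in the other muscles. The MEF2 word was at 4.10%, 2.79%, 3.04% and 5.62% against 6.06%, 5.38%, 5.52% and 5.49%, and the E-box CAGCTG at 16.4%, 16.4%, 17.7% and 21.7% against 20.4%, 19.5%, 19.4% and 19.3%. The GRE word was in 0 windows of the 158, 986, 1301 and 886 sites, which allows shares of up to 1.90%, 0.304%, 0.231% and 0.339% by the same limit of 3 counts. It was in 2 to 8 windows of all H3K27ac peaks of a muscle, so an absence among the sites is not detectable at these numbers.

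**Figure D5:**
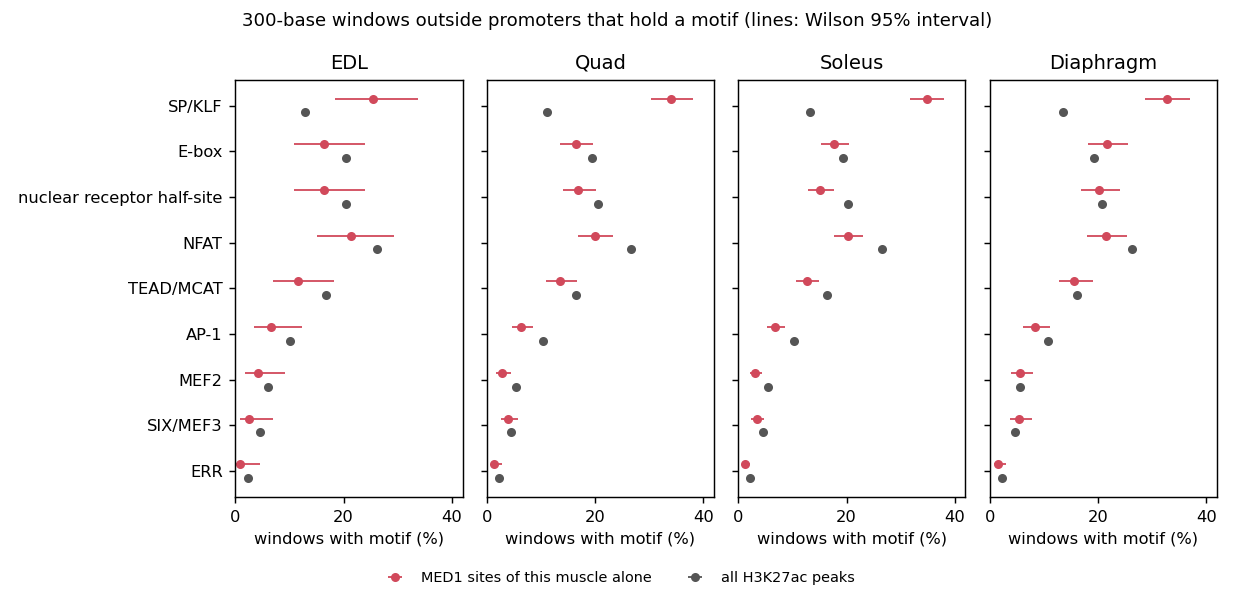
Share of 300-base windows outside promoters that hold each word (horizontal axis, percent), by muscle, for MED1 sites of 1 muscle and for all H3K27ac peaks; lines are Wilson 95% intervals. The SP/KLF word is at 25.4% to 34.9% of the sites against 11.2% to 13.5% of the peaks, and the AP-1 word at 6.27% to 8.33% against 10.1% to 10.7%.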

How the data were processed

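MED1, NFAT, H3K27ac and H3K4me2 ChIP-seq and Quad ATAC-seq lists were used as deposited. Per the labels, the authors aligned reads with Bowtie 1.2 to mm10 and called peaks with HOMER, over both replicates for histone marks and from 1 library for MED1, with DESeq2 used by the authors in the histone and differential lists. The log2 values of the deposited histone lists are the authors' normalized tags per region and library, taken to be regularized logarithms within each list. The peak score of the MED1 lists is the authors' own, and the deposited ATAC signal was not needed. Authors' fold and p columns were not used as results, except that a fold of 4 over input was an alternative filter. H3K4me2 lists of the treated Quad groups and 5 interval lists of another build were not used here.

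Lists were merged and overlapped at 1 bp with Python 3.11.15, numpy 2.4.6 and pandas 2.3.3. A site overlapping several H3K27ac peaks took the one with most bases. Class and nearest gene are the authors' annotation. Percentiles rank the mean log2 level per kb of both replicates within a list. For a muscle without the MED1 peak, levels and percentiles are those of its H3K27ac peak with the largest overlap with the site's region. Windows of 300 bases were read from the mm10 genome of RefSeq with pysam 0.24.0, and annotated with GENCODE. Overlap and word counting were tested on simulated data. Sites, gene lists and rules were chosen with earlier results of these data known. Named genes were, per muscle, the 5 highest MED1 scores, the 5 highest with H3K27ac in that muscle alone, the 3 largest leads, and all members of the lists. The background of wide H3K27ac peaks, which were not matched in width to the sites, and a search for tRNA genes were chosen after seeing the data. Some items are not reported here. Alternatives covered overlap, peak width and number, thresholds, level scaling and left-out libraries.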

Additional observations from a re-analysis of the deposited data

How the results depend on the processing

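No paired analysis was possible because no result comes from a test and each muscle had 1 MED1 library. Of the shares, counts and median levels recomputed under alternatives, 176 stayed and 32 moved. Shares stayed if within their interval, counts if within a fixed factor, and levels if within the SD of the replicates. For levels, leaving out a replicate could not count as a move under this rule. Many moves came with the 834 top-scoring MED1 peaks of each list. Sites then numbered 346 in Quad, 367 in Soleus and 444 in Diaphragm, by construction of the smaller lists. The share with H3K27ac in another muscle became 99.7%, 100% and 100%, at promoters 54.6%, 43.6% and 60.1%, and with H3K4me2 94.8%, 95.4% and 85.6%, while the Soleus share with the highest percentile in its own muscle became 23.8%. Keeping MED1 peaks at or above the median score gave 37.0% (Soleus) and 51.3% (Diaphragm) at promoters, 89.5% and 82.1% with H3K4me2, and 100% with H3K27ac in another muscle in Diaphragm. Testing the MED1 site itself for H3K27ac of other muscles gave 94.3% in EDL, 97.8% in Soleus and 98.9% in Diaphragm. Classes taken from the H3K27ac annotation put 31.3% of Quad, 30.6% of Soleus and 33.7% of Diaphragm sites at promoters. Not dividing by width gave median levels of 9.41 in EDL, 8.78 in Quad, 8.43 in Soleus and 9.18 in Diaphragm, and own-highest shares of 41.5% in Quad and 31.7% in Diaphragm. Leaving out a replicate, in all muscles or in 1, moved the own-highest share between 19.7% and 30.3% in EDL, 30.4% and 34.2% in Quad, 25.6% and 28.3% in Soleus, and 19.4% and 25.2% in Diaphragm. The cause of these moves was not tested. Over the 219 named sites, replicate levels differed by a median of 0.17 and at most 1.22 on the log2 scale. Depth of the MED1 libraries is unknown and limits any statement on peaks that are absent from a list.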

Other observations

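MED1 regions were compared with the 403 tRNA genes of RefSeq, a search chosen after the data were seen. Of these genes, 176 lay in or within 149 bp of a MED1 peak of any muscle. The MED1 sites of 1 muscle in active chromatin almost never held one. A tRNA gene was found at 4 of 3331 sites (0.120%, Wilson 95% interval 0.0467% to 0.308%), and at 23 of 5014 MED1 regions of 1 muscle outside H3K27ac (0.459%). MED1 regions of 2 or more muscles held one at 141 of 938 (15%, interval 12.9% to 17.5%). By number of muscles, the share was 6.54% of 612 regions in 2 muscles, 24.7% of 231 in 3 and 46.3% of 95 in all 4 (interval 36.6% to 56.3%). Windows at the centre of H3K27ac peaks held one at 0.0263% (Soleus) to 0.0448% (EDL). The pooled share of the sites was thus low beside shared MED1 regions but not beside H3K27ac peaks. Among Diaphragm sites it was 0 of 886. The 4 sites were Zfp692 and Mir8105 in Soleus, with scores of 38.0 and 13.5, Trim55 in EDL (9.61) and Lasp1 in Quad (8.30). MED1 peaks of other muscles lay 54 bp from the Zfp692 site and 87 bp from the Trim55 site. What sets this distribution was not tested.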
